A study of Mus musculus with 4 samples.

Results

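The DNA replication and E2F genes comprise 49 genes whose products license and copy the genome in S phase, together with transcription factors that control them. They were taken by name from the 17691 genes of the deposited table, and all 49 were found. RNA of whole lung was sequenced from wild-type C57BL/6 mice aged 6 to 8 weeks that had received bleomycin, a DNA-breaking drug used to injure the lung, or PBS, its buffer control, by the intranasal route, 10 days being the time given. The dose of bleomycin is not given in the sources used here. Each group had 2 libraries, and no other genotype or agent was named for either. More mice may have been used, since 4 groups are mentioned in the protocol and 3 replicates in the design. Values are FPKM, that is, fragments scaled to transcript length and to the library's total, so levels can be compared between genes. Fold changes are on the log2(FPKM + 1) scale with their SE, which understates the change of low genes, and adjusted p-values are those of limma over the 12986 genes that averaged 1 FPKM or more in the 4 libraries.

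A cell that enters the cycle loads the Mcm2 to Mcm7 helicase onto origins marked by the origin recognition complex, with the help of Cdc6 and Cdt1. In S phase the kinases Cdc7-Dbf4 and cyclin E-Cdk2 recruit Cdc45 and the GINS complex to the helicase, and polymerases held by the sliding clamp copy the opened strands. Many of these genes are transcribed through E2F factors once cyclin-dependent kinases have inactivated the retinoblastoma proteins. The adult lung is a tissue of slow turnover, in which injury brings resident and recruited cells into division.

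Over the whole set, 12 of 47 tested genes rose after bleomycin, 0 fell and 35 did not pass, where 8.59% of all tested genes rose and 7.69% fell. The genes that rose were *Gins2*, *Uhrf1*, *Ccne1*, *Chaf1b*, *Dbf4*, *Fen1*, *Cdc45*, *Mcm5*, *Chaf1a*, *Lig1*, *Rfc5* and *Prim2*. At an unadjusted p under 0.05, limma gave 22 members higher and 1 lower, where 17.2% of all tested genes were higher and 18.1% lower. The median log2 change was 0.41 over the 47 genes and -0.02 over all tested genes. *Orc1* and *Pole* had a mean under 1 FPKM and were not tested. Another 5 members, *Cdc6*, *Mcm10*, *Ccne1*, *E2f7* and *E2f8*, had a PBS mean under 1 FPKM and passed the filter only through the bleomycin libraries. *Ccne1* alone of these 5 was called, which leaves 11 calls among the 42 members with a PBS mean of at least 1 FPKM. With no filter, limma called 5 of the 49 members higher, *Gins2*, *Uhrf1*, *Ccne1*, *Chaf1b* and *Pole*, and 0 lower, where 4.58% of 17691 genes were higher and 4.18% lower. The number of calls also depended on single libraries. It was 18 without bleomycin replicate 1 and 26 without bleomycin replicate 2, where 18% and 18.5% of all tested genes were then called higher, and it was 0 without either PBS replicate 1 or PBS replicate 2. Without a PBS library the spread within the groups comes from the bleomycin pair alone, and limma then called 0 of 12986 genes. At an unadjusted p under 0.05 it gave 12 members higher without PBS replicate 1 and 13 without PBS replicate 2, where 8.62% and 8.8% of all tested genes were higher. Among members not called with all 4 libraries, *Cdt1*, *Mcm10*, *Pcna*, *Rfc4*, *E2f7* and *E2f8* were called higher in each of the fits that left out 1 bleomycin library, and *Mcm2*, *Mcm3*, *Mcm4*, *Mcm6*, *Gins1*, *Ccne2*, *Pole2* and *E2f1* without bleomycin replicate 2 only. In the other direction, *E2f2* was called lower in each of these fits, and *Gins4* without bleomycin replicate 1 only. Scaling to TPM or by upper quartile added *Cdt1*, *Pcna*, *Rfc4* and *E2f7*, scaling by quantiles added *Cdt1*, *Mcm10*, *Ccne2*, *E2f7* and *E2f8*, and eBayes without a trend added *Cdt1*, *Mcm10*, *Rfc4* and *E2f7*. Of all tested genes, 11.1% were called higher with TPM, 9.83% by upper quartile, 9.29% by quantiles and 8% without a trend.

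The bleomycin and PBS values did not overlap in 34 members that were higher with bleomycin and in 4 that were lower, while 11 overlapped. Of all tested genes, 31.5% were separated upward and 35% downward, while the 34 members include *Orc1* and *Pole*, which were not tested. An exact permutation test of a single gene cannot go below p = 0.333 with 2 libraries against 2. The summed FPKM of the 49 genes was 469.6 and 406.4 in the bleomycin libraries, against 350.0 and 360.1 in the PBS libraries. The replicates were not equally high. Bleomycin replicate 1 exceeded replicate 2 in 42 of 49 members, where it did so in 62.3% of all tested genes, and the median log2 difference between them was 0.19 over the members and 0.07 over all tested genes. The plot of FPKM by library shows this as a gap between the bleomycin points in most rows.

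**Figure D1:**
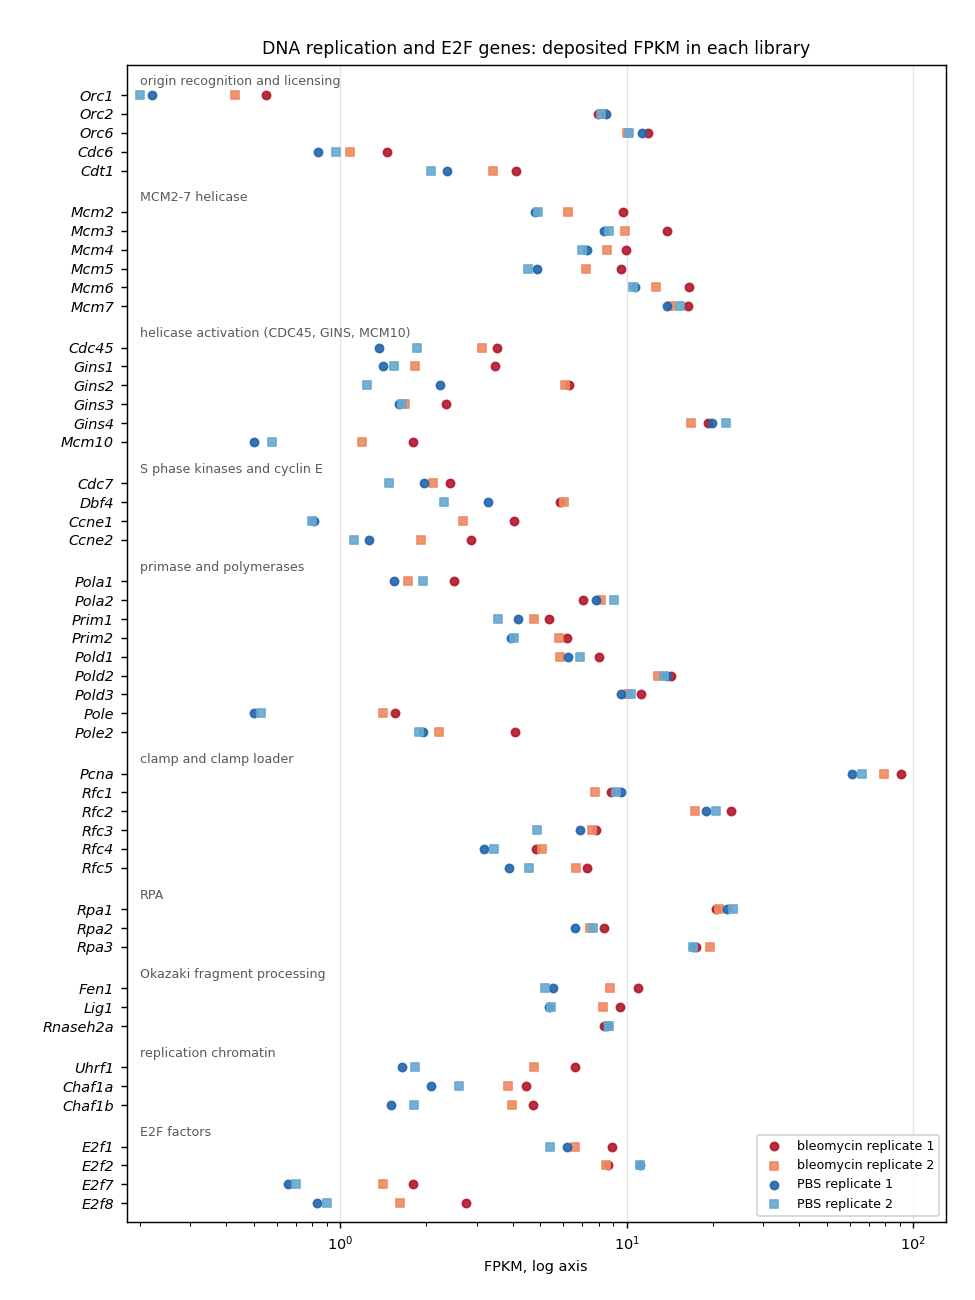
Deposited FPKM (log axis) of the 49 genes in each of the 4 libraries, arranged by role. The bleomycin points lie to the right of the PBS points in 34 rows, and bleomycin replicate 1 lies to the right of replicate 2 in 42.

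Libraries also differed in ways that touch these values. Depth was estimated from the spacing of low FPKM values, and came to 17200000 and 17800000 fragments for the bleomycin libraries and 17000000 and 17100000 for the PBS libraries. *Orc1*, the lowest member, then rests on about 28.5 and 23.1 fragments in the bleomycin libraries and 11.3 and 10.3 in the PBS libraries, and *Pcna*, the highest, on about 2368 and 2137 in the bleomycin libraries and 1577 and 1724 in the PBS libraries. The Y-linked gene *Eif2s3y* was listed at 0 in both bleomycin libraries and had 26.43 and 28.86 FPKM in the PBS libraries, so the sex of the mice and the treatment cannot be told apart, and 1 member, *Pola1*, lies on the X chromosome. In whole lung, fewer cells of a type and less RNA per cell cannot be told apart either. No library had a marker of the lists that follow at 0. Lung markers were abundant, those of alveolar type II cells summing to 13060 and 10010 FPKM in the bleomycin libraries and to 12300 and 14990 in the PBS libraries.

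Among cell type markers, 5 of 8 macrophage genes rose and 0 fell, with summed levels of 5322 and 1826 FPKM in the bleomycin libraries and 2429 and 3020 FPKM in the PBS libraries. The sum is mostly *Lyz2*, which did not pass. Of 5 fibroblast markers 3 rose and 1 fell, with sums of 800.3 and 982.8 FPKM in the bleomycin libraries and 414.4 and 400.7 FPKM in the PBS libraries. None of 6 T cell and 4 B cell markers passed, but the bleomycin libraries differed. The T cell sums were 34.95 and 12.01 FPKM with bleomycin and 25.5 and 26.0 FPKM with PBS, and the B cell sums 33.86 and 6.01 FPKM with bleomycin and 33.19 and 32.93 FPKM with PBS. Markers that were lower included 3 of 5 for neutrophils, 2 of 4 for endothelium, 2 of 3 for airway secretory cells, 1 of 4 for alveolar type I cells, 4 of 4 tested for erythroid cells and 5 of 5 for hepatocytes, while 0 of 5 alveolar type II markers passed. The part that any of these cell types has in the replication genes was not tested.

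None of the origin recognition and licensing genes passed. Of 5 members 4 were tested, with a median log2 change of 0.13. *Orc6* and *Orc2*, subunits of the complex that marks origins, were the highest of the group. *Orc6* had 11.86 and 10.01 FPKM in bleomycin lungs, against 11.28 and 10.20 FPKM in PBS lungs (0.02 ± 0.12, adjusted p = 0.916). *Orc2* had 7.96 and 8.30 FPKM in bleomycin lungs, against 8.50 and 8.14 FPKM in PBS lungs (-0.03 ± 0.09, adjusted p = 0.841). For both genes the groups overlapped. The remaining 3 were separated upward without a call. *Cdt1*, which brings the helicase to origins, had 4.11 and 3.41 FPKM with bleomycin and 2.36 and 2.08 FPKM with PBS (0.56 ± 0.14, adjusted p = 0.0564). *Cdc6*, its loading partner, had 1.46 and 1.08 FPKM with bleomycin and 0.84 and 0.97 FPKM with PBS (0.25 ± 0.16, adjusted p = 0.326). *Orc1*, the subunit of the origin complex whose level cycles, was below the filter at 0.55 and 0.43 FPKM with bleomycin and 0.22 and 0.20 FPKM with PBS.

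Of the helicase genes *Mcm2* to *Mcm7*, *Mcm5* rose and 5 did not pass, with a median log2 change of 0.42 over the 6. *Mcm5* had 9.59 and 7.24 FPKM in bleomycin lungs, against 4.86 and 4.54 FPKM in PBS lungs (0.71 ± 0.15, adjusted p = 0.0423). *Mcm2* had 9.74 and 6.22 FPKM with bleomycin and 4.8 and 4.89 FPKM with PBS (0.59 ± 0.21, adjusted p = 0.121). In both genes every bleomycin value exceeded every PBS value, but the bleomycin pair of *Mcm2* differed more, with 9.74 FPKM in replicate 1 and 6.22 FPKM in replicate 2. *Mcm3* had 13.84 and 9.87 FPKM with bleomycin and 8.34 and 8.68 FPKM with PBS (0.42 ± 0.17, adjusted p = 0.157). *Mcm6* had 16.47 and 12.67 FPKM with bleomycin and 10.68 and 10.50 FPKM with PBS (0.42 ± 0.14, adjusted p = 0.113). *Mcm4* had 9.98 and 8.54 FPKM with bleomycin and 7.30 and 7.0 FPKM with PBS (0.33 ± 0.11, adjusted p = 0.112). These 3 subunits were also separated without a call. *Mcm7* overlapped between the groups, with 16.39 and 14.34 FPKM with bleomycin and 13.84 and 15.34 FPKM with PBS (0.07 ± 0.11, adjusted p = 0.686). The complex holds 1 copy of each subunit, yet the transcripts stood apart per length. The highest subunit exceeded the lowest 1.72 and 2.31 times in the bleomycin libraries and 2.88 and 3.38 times in the PBS libraries. *Mcm7* or *Mcm6* was highest and *Mcm2* or *Mcm5* lowest in each library.

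**Figure D2:**
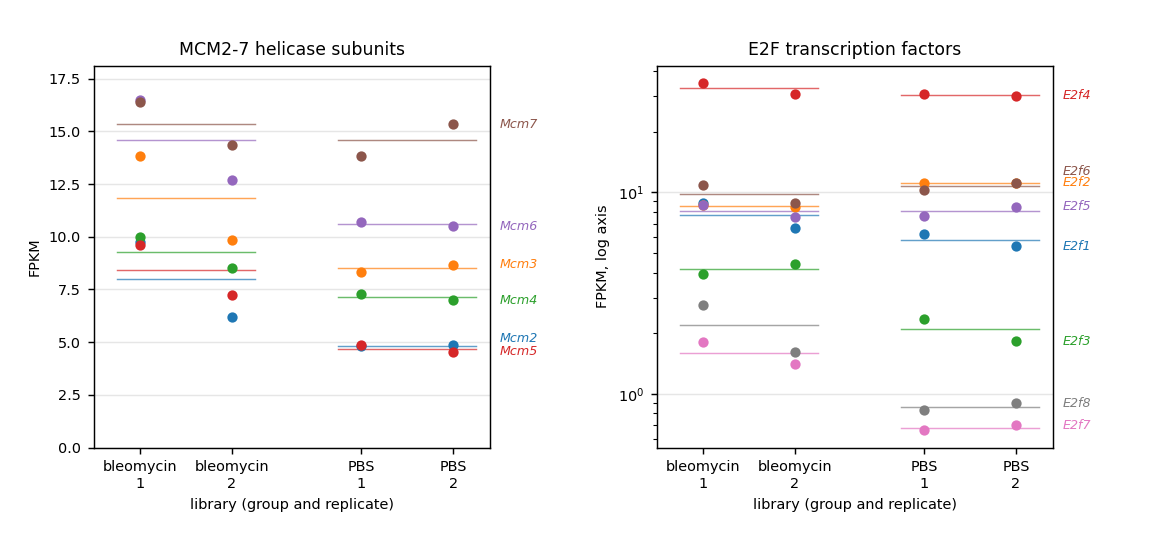
FPKM of the 6 helicase subunits (left, linear axis from 0) and of 8 E2F genes (right, log axis) in each library, with a bar at the mean of each group. *Mcm7* sits at 13.84 to 16.39 FPKM in all 4 libraries while *Mcm5* lies between 7.24 and 9.59 FPKM with bleomycin and between 4.54 and 4.86 FPKM with PBS, and *E2f2* lies at 8.45 and 8.60 FPKM with bleomycin and at 11.10 and 11.13 FPKM with PBS.

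Among genes that turn the loaded helicase into an active one, *Gins2* and *Cdc45* rose. *Gins2* (gene 272551, GRCm38.p6 chromosome 8, 120581266 to 120589075) encodes a subunit of GINS and had 6.27 and 6.09 FPKM in bleomycin lungs, against 2.23 and 1.24 FPKM in PBS lungs (1.42 ± 0.20, adjusted p = 0.0183). *Cdc45*, which completes the active helicase with GINS, had 3.52 and 3.14 FPKM with bleomycin and 1.37 and 1.85 FPKM with PBS (0.74 ± 0.15, adjusted p = 0.0386). In the GENCODE annotation, 2758 of 4097 exon bases of *Gins2* are also exon of *Gse1* on the other strand, and strand use in the counting is not given in the sources used here. *Gse1* itself had 9.98 and 10.47 FPKM with bleomycin and 10.61 and 11.53 FPKM with PBS. *Mcm10*, which binds the firing helicase, had 1.79 and 1.19 FPKM with bleomycin and 0.50 and 0.58 FPKM with PBS (0.68 ± 0.18, adjusted p = 0.0676). *Gins1* had 3.47 and 1.82 FPKM with bleomycin and 1.41 and 1.54 FPKM with PBS, and *Gins3* had 2.34 and 1.68 FPKM with bleomycin and 1.61 and 1.64 FPKM with PBS. Neither passed (0.52 ± 0.25, adjusted p = 0.209 for *Gins1* and 0.19 ± 0.16, adjusted p = 0.449 for *Gins3*). *Gins4*, the most abundant of the GINS genes, had 19.30 and 16.84 FPKM with bleomycin and 19.87 and 22.31 FPKM with PBS, with both bleomycin values below both PBS values (-0.21 ± 0.11, adjusted p = 0.24). Without bleomycin replicate 1 the log2 change of *Gins4* was -0.31. In all, 2 of these 6 genes rose and 4 did not pass, with a median log2 change of 0.60.

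The 4 genes of the S phase kinases and cyclin E were all separated upward, and 2 of them rose, with a median log2 change of 0.75. *Ccne1*, the gene of cyclin E1 (gene 12447, chromosome 7, 38097984 to 38107490), had 4.05 and 2.69 FPKM in bleomycin lungs, against 0.81 and 0.80 FPKM in PBS lungs (1.26 ± 0.19, adjusted p = 0.0208). The PBS values rest on about 27.5 and 27.4 fragments. *Dbf4*, the activator of the Cdc7 kinase, had 5.85 and 6.04 FPKM with bleomycin and 3.28 and 2.30 FPKM with PBS (0.89 ± 0.16, adjusted p = 0.0291). *Cdc7* itself had 2.42 and 2.11 FPKM with bleomycin and 1.97 and 1.48 FPKM with PBS (0.27 ± 0.15, adjusted p = 0.284). *Ccne2*, the second cyclin E gene, had 2.86 and 1.91 FPKM with bleomycin and 1.26 and 1.12 FPKM with PBS (0.61 ± 0.18, adjusted p = 0.0886). The summed FPKM of the 4 genes was 15.18 and 12.75 with bleomycin and 7.32 and 5.70 with PBS.

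**Figure D3:**
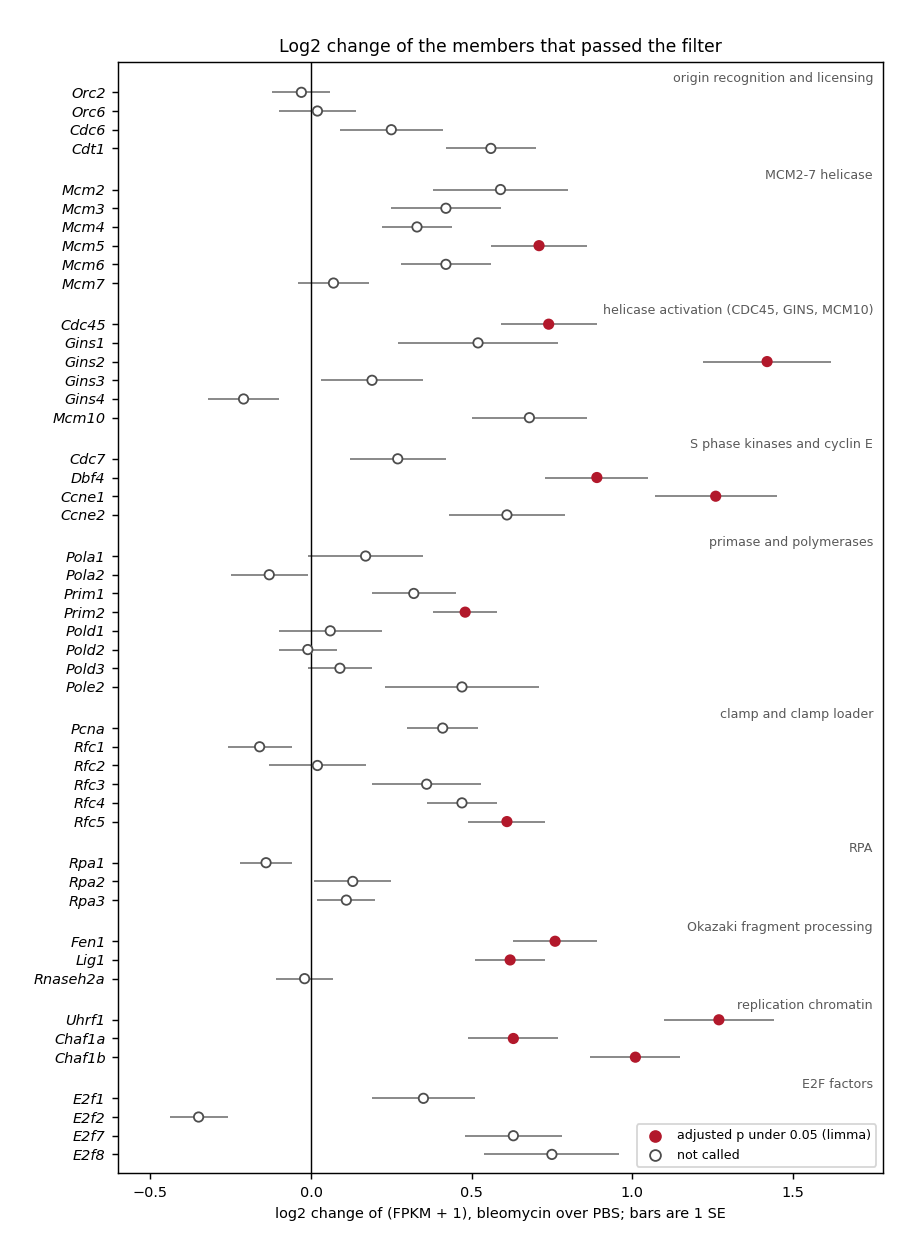
Log2 change of (FPKM + 1), bleomycin over PBS, for the 47 tested members, with bars of 1 SE and filled points for an adjusted p under 0.05 by limma. The 12 filled points lie at 0.48 to 1.42, and the lowest open point is *E2f2* at -0.35.

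Primase and polymerase genes held 1 call among 8 tested members, with a median log2 change of 0.13. *Prim2*, the large primase subunit gene, had 6.18 and 5.79 FPKM in bleomycin lungs, against 3.95 and 4.06 FPKM in PBS lungs (0.48 ± 0.10, adjusted p = 0.0421). *Prim1*, the catalytic primase subunit, had 5.38 and 4.75 FPKM with bleomycin and 4.19 and 3.55 FPKM with PBS (0.32 ± 0.13, adjusted p = 0.155). The polymerase alpha genes overlapped between groups, with *Pola1* at 2.49 and 1.72 FPKM with bleomycin and 1.54 and 1.94 FPKM with PBS (0.17 ± 0.18, adjusted p = 0.537). *Pola2* had 7.03 and 8.17 FPKM with bleomycin and 7.80 and 9.05 FPKM with PBS (-0.13 ± 0.12, adjusted p = 0.492). In none of the 3 listed subunit genes of polymerase delta, which copies the lagging strand, were the groups separated. *Pold2* had 14.30 and 12.92 FPKM with bleomycin and 13.84 and 13.50 FPKM with PBS (-0.01 ± 0.09, adjusted p = 0.964). *Pold3* had 11.22 and 10.12 FPKM with bleomycin and 9.59 and 10.32 FPKM with PBS (0.09 ± 0.10, adjusted p = 0.558), and *Pold1*, the catalytic subunit, had 8.00 and 5.85 FPKM with bleomycin and 6.24 and 6.86 FPKM with PBS (0.06 ± 0.16, adjusted p = 0.826). The leading strand polymerase epsilon was separated upward in both listed genes. *Pole*, its catalytic subunit, lay just below the filter at 1.55 and 1.41 FPKM with bleomycin and 0.50 and 0.53 FPKM with PBS, and was called only in the fit without a filter (0.71, adjusted p = 0.0276). *Pole2* had 4.07 and 2.21 FPKM with bleomycin and 1.94 and 1.88 FPKM with PBS (0.47 ± 0.24, adjusted p = 0.237). Subunit genes outside the set stood otherwise. *Pole3* and *Pole4* of polymerase epsilon overlapped between the groups (-0.03 ± 0.09 and -0.01 ± 0.18). *Pold4* of polymerase delta was separated upward, with 38.03 and 37.84 FPKM with bleomycin and 31.5 and 31.67 FPKM with PBS (0.26 ± 0.07, adjusted p = 0.0815). None of them passed.

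*Pcna*, the sliding clamp and the most abundant member, had 90.69 and 79.07 FPKM in bleomycin lungs, against 61.09 and 66.41 FPKM in PBS lungs. It was separated upward but did not pass (0.41 ± 0.11, adjusted p = 0.0648). The annotation holds 2 *Pcna* pseudogenes, so fragments could be split in the authors' counting. Of the clamp loader genes *Rfc1* to *Rfc5*, only *Rfc5* rose in this fit, with 7.30 and 6.66 FPKM with bleomycin and 3.89 and 4.57 FPKM with PBS (0.61 ± 0.12, adjusted p = 0.035). Of 4669 annotated exon bases of *Rfc5*, 499 are also exon of *Wsb2* on the other strand. *Wsb2* had 63.51 and 63.26 FPKM with bleomycin and 46.06 and 51.73 FPKM with PBS (0.37 ± 0.09, adjusted p = 0.0575). Its part in the *Rfc5* values was not tested. *Rfc4* had 4.84 and 5.06 FPKM with bleomycin and 3.17 and 3.44 FPKM with PBS (0.47 ± 0.11, adjusted p = 0.0514). *Rfc3* had 7.85 and 7.59 FPKM with bleomycin and 6.88 and 4.88 FPKM with PBS (0.36 ± 0.17, adjusted p = 0.199). The groups were not separated upward in the other loader genes. *Rfc2* had 23.06 and 17.38 FPKM with bleomycin and 19.00 and 20.47 FPKM with PBS (0.02 ± 0.15, adjusted p = 0.933). *Rfc1*, the large subunit, had 8.85 and 7.76 FPKM with bleomycin and 9.53 and 9.17 FPKM with PBS (-0.16 ± 0.10, adjusted p = 0.341), with the groups separated downward. Per length, the order *Rfc2*, *Rfc1*, *Rfc3*, *Rfc5*, *Rfc4* held in all 4 libraries.

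None of the 3 genes of RPA, the complex that coats single-stranded DNA in replication and repair, passed. *Rpa1* had 20.58 and 20.95 FPKM in bleomycin lungs, against 22.40 and 23.59 FPKM in PBS lungs (-0.14 ± 0.08, adjusted p = 0.275). *Rpa3* had 17.50 and 19.60 FPKM with bleomycin and 17.06 and 17.08 FPKM with PBS (0.11 ± 0.09, adjusted p = 0.436), and *Rpa2* had 8.32 and 7.47 FPKM with bleomycin and 6.62 and 7.62 FPKM with PBS (0.13 ± 0.12, adjusted p = 0.459). The summed FPKM of the 3 genes, 46.40 and 48.02 with bleomycin and 46.08 and 48.29 with PBS, overlapped. Of the enzymes that finish Okazaki fragments, the flap nuclease gene *Fen1* and the ligase gene *Lig1* rose. *Fen1* had 10.95 and 8.72 FPKM with bleomycin and 5.53 and 5.21 FPKM with PBS (0.76 ± 0.13, adjusted p = 0.0278). *Lig1* had 9.48 and 8.24 FPKM with bleomycin and 5.35 and 5.46 FPKM with PBS (0.62 ± 0.11, adjusted p = 0.0274). *Rnaseh2a*, the catalytic subunit of the nuclease that removes RNA from DNA, had 8.36 and 8.60 FPKM with bleomycin and 8.54 and 8.71 FPKM with PBS (-0.02 ± 0.09, adjusted p = 0.878). Of 2422 annotated exon bases of *Fen1*, 1909 are shared with the antisense gene *Gm10143*, which the strand would be needed to separate.

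The 3 members that act on chromatin behind the fork all rose, with a median log2 change of 1.01. *Uhrf1*, which reads half-methylated DNA and recruits the maintenance methyltransferase (gene 18140, chromosome 17, 56303337 to 56323486), had 6.59 and 4.74 FPKM in bleomycin lungs, against 1.64 and 1.83 FPKM in PBS lungs (1.27 ± 0.17, adjusted p = 0.0169). *Chaf1b*, a subunit of the histone chaperone CAF-1 (gene 110749, chromosome 16, 93883900 to 93906115), had 4.72 and 3.99 FPKM with bleomycin and 1.51 and 1.81 FPKM with PBS (1.01 ± 0.14, adjusted p = 0.0173). *Chaf1a*, its large partner, had 4.47 and 3.85 FPKM with bleomycin and 2.07 and 2.61 FPKM with PBS (0.63 ± 0.14, adjusted p = 0.0499). Both subunit genes stood at nearly the same level with bleomycin, the higher exceeding the lower 1.06 and 1.04 times, while *Chaf1a* was the higher 1.37 and 1.44 times with PBS. The call of *Chaf1a* was lost with a pseudocount of 0.1 or 0.5, with robust variances, with no filter, with a filter at 5 FPKM, which it did not pass, and when either PBS library was left out. Of 8854 annotated exon bases of *Chaf1a*, 4648 are also exon of *Ubxn6* on the other strand. *Ubxn6* had 27.53 and 29.41 FPKM with bleomycin and 32.11 and 34.73 FPKM with PBS (limma -0.22 ± 0.09, adjusted p = 0.148). Its part in the *Chaf1a* values was not tested.

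With all 4 libraries none of the 4 E2F factors passed, with a median log2 change of 0.49. *E2f1*, an activator of S phase genes (gene 13555, chromosome 2, 154559400 to 154569892), had 8.88 and 6.63 FPKM in bleomycin lungs, against 6.21 and 5.41 FPKM in PBS lungs (0.35 ± 0.16, adjusted p = 0.194). *E2f2*, classed with the activators (gene 242705, chromosome 4, 136172274 to 136196057), stood the other way, at 8.60 and 8.45 FPKM with bleomycin and 11.10 and 11.13 FPKM with PBS (-0.35 ± 0.09, adjusted p = 0.0578). Without bleomycin replicate 1 the log2 change was -0.36 for *E2f2*, 0.52 for *E2f7* and 0.49 for *E2f8*. In mice *E2f2* is known for its part in red cell maturation, and 4 of 4 tested erythroid markers fell in the same comparison, with sums of 1831 and 1276 FPKM with bleomycin and 4152 and 5450 FPKM with PBS. Their part in the *E2f2* level was not tested. The atypical repressors *E2f7* and *E2f8*, which are themselves E2F targets, were low in all libraries. *E2f7* (gene 52679, chromosome 10, 110745439 to 110787384) had 1.80 and 1.41 FPKM with bleomycin and 0.66 and 0.70 FPKM with PBS (0.63 ± 0.15, adjusted p = 0.0565). *E2f8* (gene 108961, chromosome 7, 48866429 to 48882073) had 2.76 and 1.62 FPKM with bleomycin and 0.83 and 0.90 FPKM with PBS (0.75 ± 0.21, adjusted p = 0.0796). The E2F, DP, retinoblastoma and MuvB genes outside the set held 2 rises and 1 fall among 14. The activator *E2f3* rose, with 3.93 and 4.42 FPKM with bleomycin and 2.36 and 1.83 FPKM with PBS (0.75 ± 0.14, adjusted p = 0.0337). *Tfdp1*, the usual dimer partner of E2F proteins, rose to 21.65 and 20.18 FPKM with bleomycin, against 14.89 and 13.68 FPKM with PBS (0.52 ± 0.09, adjusted p = 0.0278). *Lin52*, of the MuvB complex, fell to 7.56 and 6.62 FPKM with bleomycin, against 10.88 and 11.66 FPKM with PBS (-0.60 ± 0.11, adjusted p = 0.0278). *E2f4*, a partner of the retinoblastoma-like proteins and the most abundant E2F gene here, had 34.86 and 30.82 FPKM with bleomycin and 30.87 and 30.11 FPKM with PBS (0.10 ± 0.09, adjusted p = 0.481).

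Promoters of the members were searched for the letters that E2F proteins bind. RefSeq windows of 300 bases, from 250 before to 50 after a start site (GRCm38.p6), were found for 41 of the 49 genes, and *Ccne2*, *Gins1*, *Gins2*, *Gins4*, *Mcm4*, *Pole*, *Prim2* and *Rfc2* had none. TTTGGCGC or TTTCGCGC, on either strand, was found in 12 of the 41 genes, or 29.3%, against 0.929% of 27025 genes with a window. The shorter TTGGCGC or TTCGCGC, which every longer match contains, was found in 17 of 41, or 41.5%, against 4.47% of all genes. CCAAT, the box of NF-Y, was in 63.4% of the members and 41.1% of all genes, and TTTGAA, the letters of the CHR element of late cell cycle genes, in 22% of the members and 20.2% of all genes, both on either strand. The longer E2F letters were in 3 of 10 members that rose and in 9 of 31 that were not called or not tested. The 3 genes that rose with a longer match were *Uhrf1*, *Mcm5* and *Lig1*. Their windows are printed to show where these letters lie, with each longer match in capitals and shorter ones left unmarked. *Uhrf1* lies at chr17:56304063-56304362, *Mcm5* at chr8:75109259-75109558 and *Lig1* at chr7:13278576-13278875, all on the plus strand of GRCm38.p6 as in the RefSeq table. For *Uhrf1* and *Lig1*, which have more than 1 start site, the window with the longer match is given.
Uhrf1: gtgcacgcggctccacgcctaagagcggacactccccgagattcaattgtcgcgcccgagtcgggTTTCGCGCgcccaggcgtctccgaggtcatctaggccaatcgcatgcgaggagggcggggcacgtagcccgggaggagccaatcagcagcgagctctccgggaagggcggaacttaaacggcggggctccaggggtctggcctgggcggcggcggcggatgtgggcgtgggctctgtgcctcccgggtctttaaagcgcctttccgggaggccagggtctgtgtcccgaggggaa
Mcm5: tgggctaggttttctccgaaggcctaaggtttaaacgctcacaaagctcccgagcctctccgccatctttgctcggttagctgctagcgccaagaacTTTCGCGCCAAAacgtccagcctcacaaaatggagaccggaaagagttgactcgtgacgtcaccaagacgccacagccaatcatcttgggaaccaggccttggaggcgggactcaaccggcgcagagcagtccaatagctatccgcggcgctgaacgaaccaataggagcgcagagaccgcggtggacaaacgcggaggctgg
Lig1: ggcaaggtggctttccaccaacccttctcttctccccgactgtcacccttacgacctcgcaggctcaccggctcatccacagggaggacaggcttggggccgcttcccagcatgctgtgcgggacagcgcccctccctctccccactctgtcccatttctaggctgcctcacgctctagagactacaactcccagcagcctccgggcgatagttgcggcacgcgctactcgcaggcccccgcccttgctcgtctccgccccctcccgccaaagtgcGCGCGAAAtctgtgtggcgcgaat

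Counted from the start site, with bases before it negative, the longer match in *Uhrf1* began at -185. *Mcm5* held a pair of overlapping longer matches, on opposite strands, that begin at -153 and -149. The longer match of *Lig1* began at base 27. Among the genes not called, *Mcm6* held 3 longer matches, the most of any member, and *Mcm7*, whose FPKM overlapped between the groups, held 1. A match says only that the letters are in the window.

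**Figure D4:**
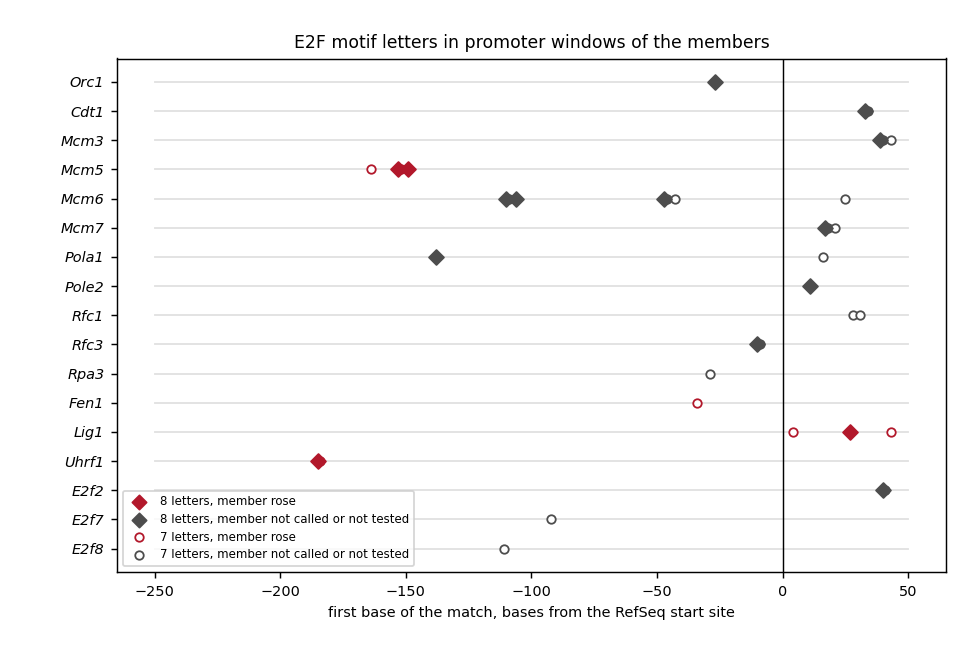
First base of each E2F letter match relative to the RefSeq start site, for the 17 members that hold one, with diamonds for the 8-letter and open circles for the 7-letter form. Red marks members that rose, and *Mcm6* holds the most matches.

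Several members share their start region with a gene on the other strand. Of 12 such neighbours tested, 2 fell, 0 rose and 10 did not pass, beside the 7.69% of all tested genes that fell. *Pcna* starts 158 bases from *Cds2*, which makes a lipid precursor, and *Cds2* fell to 30.6 ± 0.841 FPKM in bleomycin lungs, against 39.2 ± 0.325 FPKM in PBS lungs (mean ± SD, n = 2 each; limma -0.35 ± 0.08, adjusted p = 0.0452). *Pole* starts 97 bases from *Pxmp2*, a peroxisomal membrane protein gene, which fell to 3.98 and 3.94 FPKM with bleomycin, against 6.73 and 6.20 FPKM with PBS (-0.59 ± 0.10, adjusted p = 0.0274). In both pairs the replication gene was separated upward and its neighbour downward. *Mcm4* starts 44 bases from *Prkdc*, the gene of a DNA repair kinase, which had 1.33 and 1.60 FPKM with bleomycin and 2.0 and 1.91 FPKM with PBS and did not pass (-0.26 ± 0.14, adjusted p = 0.236). The called members *Dbf4*, *Fen1* and *Cdc45* start 5, 191 and 236 bases from *Slc25a40*, *Tmem258* and *Ufd1*, none of which passed. Their log2 changes were 0.20 ± 0.11 for *Slc25a40*, 0.12 ± 0.09 for *Tmem258* and -0.01 ± 0.08 for *Ufd1*. *Fen1* shares 130 of 2422 annotated exon bases with *Tmem258*, and *Cdc45* shares 209 of 3506 with *Ufd1*. *Tmem258* had 101.28 and 91.39 FPKM with bleomycin and 88.5 and 89.0 FPKM with PBS. *Ufd1* had 32.46 and 33.98 FPKM with bleomycin and 32.58 and 34.23 FPKM with PBS. Their part in the *Fen1* and *Cdc45* values was not tested.

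Among other genes of the cycle, the 22 mitosis genes listed all rose, with a median log2 change of 1.5, against 12 of 47 and 0.41 for the replication and E2F genes, and the difference between the lists was not tested. *Bub1*, *Cenpe* and *Ncapg* of that list had a PBS mean under 1 FPKM and passed the filter through the bleomycin libraries. The lists were chosen with earlier results of these data known, and 8.59% of all tested genes rose and 7.69% fell. *Ccna2*, the gene of cyclin A2, which acts in S phase and mitosis, had 13.42 and 11.48 FPKM with bleomycin and 1.97 and 2.57 FPKM with PBS (2.04 ± 0.15, adjusted p = 0.00616). The spindle gene *Prc1* changed by 1.97, the cyclin B1 gene *Ccnb1* by 1.93 and its kinase gene *Cdk1* by 1.86 on the log2 scale. Of 30 tested genes of origins, forks and replication chromatin outside the set, 4 rose, 0 fell and 26 did not pass, with a median of 0.18. Those 4 were *2810417H13Rik*, the earlier name of the Pcna-binding factor gene *Pclaf* (1.35 ± 0.16, adjusted p = 0.0134), the histone chaperone gene *Asf1b* (1.04 ± 0.14, adjusted p = 0.0166), the checkpoint adaptor gene *Clspn* (0.98 ± 0.15, adjusted p = 0.0197) and *Mms22l* (0.72 ± 0.15, adjusted p = 0.0374). *Clspn* and *Mms22l* had a PBS mean under 1 FPKM and passed the filter through the bleomycin libraries. Of 10 genes that supply deoxynucleotides 3 rose, 1 fell and 6 did not pass. The thymidine kinase gene *Tk1* (1.73 ± 0.09, adjusted p = 0.00494) and the ribonucleotide reductase genes *Rrm2* (1.56 ± 0.13, adjusted p = 0.00765) and *Rrm1* (0.93 ± 0.10, adjusted p = 0.0115) rose, and *Rrm2b*, the reductase subunit used outside S phase, fell to 4.60 and 4.48 FPKM with bleomycin, against 8.32 and 7.84 FPKM with PBS (-0.71 ± 0.10, adjusted p = 0.0171). Among 15 tested genes that govern G1 and entry into S phase 3 rose, 2 fell and 10 did not pass. The inhibitor gene *Cdkn1a* (2.33 ± 0.10, adjusted p = 0.00416), the cyclin D1 gene *Ccnd1* (0.59 ± 0.09, adjusted p = 0.0194) and *Cdk2*, the partner of cyclin E (0.45 ± 0.10, adjusted p = 0.0445), rose. The inhibitor genes *Cdkn1c* (-1.01 ± 0.08, adjusted p = 0.00629) and *Cdkn1b* (-0.56 ± 0.08, adjusted p = 0.0173) fell. Without PBS replicate 1 or PBS replicate 2 limma called 0 genes of each of these lists.

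**Figure D5:**
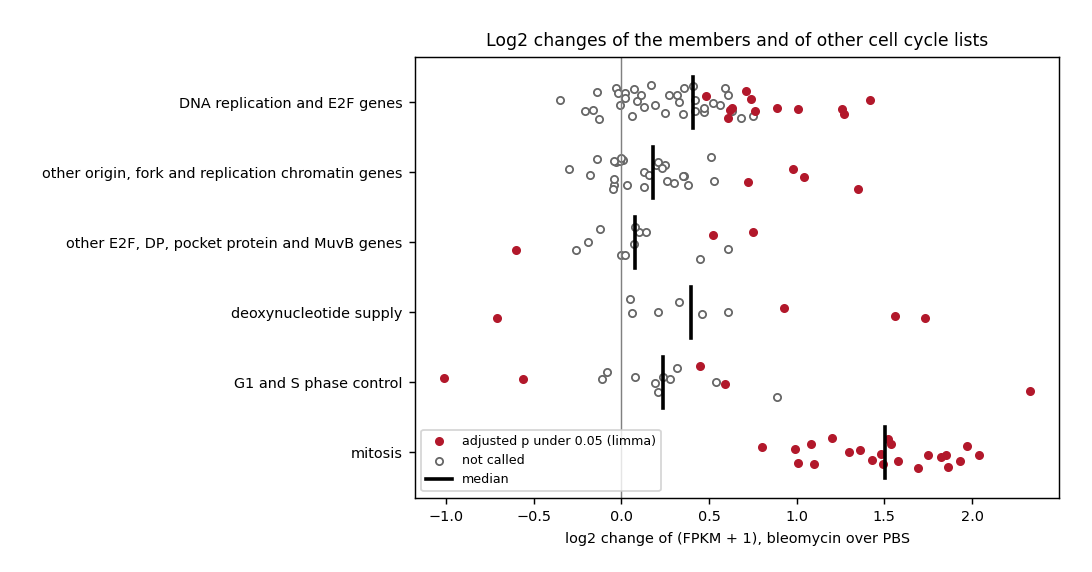
Log2 change of (FPKM + 1), bleomycin over PBS, for the tested members and for 5 other lists, 1 point a gene, filled where the adjusted p was under 0.05 by limma, with a bar at the median. The members' median is 0.41 and that of the 22 mitosis genes 1.5.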

How the data were processed

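Lung RNA was measured in 4 libraries, 2 with bleomycin and 2 with PBS, grouped by sample title. The authors deposited FPKM values with 2 decimals, per the file headers. The submitters' processing notes name the aligners HISAT and Bowtie2 and, as genome, GRCm38 and mm10; neither the program that made the FPKM nor its use of strand is stated in the sources at hand. The labels do not state that libraries came from separate animals, so p-values reflect only how these libraries vary, possibly for technical reasons. Of 17692 rows, 1 had no name (at most 0.0009% of a library's summed FPKM) and was not used; 27 gene names stored as dates were restored by transcript. Depth was estimated from genes with 1 transcript of 300 to 1000 bases at 0.03 to 0.3 FPKM, where 75% to 78.1% of values gave whole fragments within 0.15 at the best depth, which was picked on these values, and fragment numbers use annotated length. Replicates differed by more than sampling noise (median squared difference 8.01 times the noise for bleomycin and 2.86 times for PBS), so no pair was counted as 1 library.

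The test was limma 3.58.1 (R 4.3.3) on log2(FPKM + 1), by eBayes with a trend, two-sided, with Benjamini-Hochberg adjustment at 0.05. Prior degrees of freedom were 2.76 and residual ones 2. FPKM is not a count, so no count model was run. The functions were tested on simulated data. The members, lists and tests were chosen with earlier results of these data known. Genes are named by rule: in each of 10 role groups up to 3 called members with the largest change and up to 2 uncalled ones with the highest mean, all helicase and E2F members, those below the filter, and up to 4 called genes per other list. The other members, *Bub1*, *Cenpe*, *Ncapg*, *E2f4*, *Pole3*, *Pole4*, *Pold4*, the Y-linked gene and the genes sharing exons with members were added after values were seen. Positions are from the RefSeq gene table (GRCm38.p6), strands and exons from GENCODE M21, and promoters from RefSeq. Tables were made in Python 3.11.15 with pandas 2.3.3. Alternatives were pseudocounts of 0.1 and 0.5, no filter and one at 5 FPKM, scaling by quantiles, to TPM and by upper quartile, robust eBayes and eBayes without trend, the replicate number as a block, and the omission of each library in turn.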

Additional observations from a re-analysis of the deposited data

How the results depend on the processing

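The count of members called higher was 12 and stayed between 11 and 17 with either other pseudocount, with scaling by upper quartile, to TPM or by quantiles, and with robust eBayes or eBayes without trend. Of all tested genes, 8.59% were called higher in the main fit and between 8% and 11.1% under these alternatives. The member count was 5 with no filter, where more genes were tested and 4.58% of them were called higher. It was 4 with a filter at 5 FPKM, where 26 members were tested and 8.93% of all tested genes were called higher. It also moved with the library left out, in fits where the lone library left in a group is taken to vary like the other group. The count called lower was 0 in the main fit and under every alternative that kept all 4 libraries. The same replicate numbers in both groups did not mark pairs (correlation of their deviations 0.023 over 12986 genes). With a replicate block 8 members were called higher, where 6.48% of all tested genes were. All 8 were among the 12, *Cdc45*, *Prim2*, *Rfc5* and *Chaf1a* being lost. No member was called with the opposite sign under any of these alternatives. At the estimated depth the lowest members rest on few fragments, and 2 libraries a group limit what limma can call.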
